A study of Mus musculus with 16 samples.

Results

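Hair keratins and keratin-associated proteins were followed in ear skin of C57BL/6 mice after MC903, a vitamin D analogue (calcipotriol) that causes inflammation resembling atopic dermatitis. The members are the 73 genes, of 45777 in the mouse gene table, whose symbol is Krt25 to Krt28, Krt31 to Krt36, Krt71 to Krt75 or Krt81 to Krt86, or begins with Krtap. They comprise 19 keratins and 54 keratin-associated proteins. Both groups were wild-type, and both received 50 µM MC903 in 20 µL of 100% ethanol on both ears daily for 10 days. In the anti-OSM group (3 libraries), mice were given 20 µg of an antibody against the cytokine oncostatin M intradermally on alternate days. In the anti-Ly6G group (3 libraries), mice were given 200 µg of an antibody used to deplete neutrophils, intraperitoneally, 2 days ahead of MC903 and again 1 and 4 days after it. Antibody, dose, route and schedule differed together, no isotype antibody is named, and ears without antibody were not analysed here. The labels used here give neither age, sex, collection day nor library batch, so a batch cannot be told apart from the group.

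Hair keratins are intermediate filament proteins that pair as type I (acidic) with type II (basic) partners. The growing follicle builds the hair shaft from one set of them and the inner root sheath, the sleeve that moulds the shaft, from another, while Krt75 is best known from the companion layer that separates the inner from the outer root sheath. Keratin-associated proteins are small proteins, rich in cysteine or in glycine and tyrosine, that embed the shaft filaments. Most of these genes are strongly transcribed only while a follicle is in its growth phase (anagen) and fall silent when it rests (telogen).

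The members lie in tight genomic clusters. In GRCm38.p6, 31 members lie within chr11:99315516-100109487, which holds the type I hair keratins and many keratin-associated genes. Another 23 keratin-associated genes lie within chr16:88610709-89571183, 10 type II keratins within chr15:101459061-101802360, 5 Krtap5 genes within chr7:142174532-142304503, 3 within chr10:77720586-77837251, and 1, Krtap28-13, at chr1:83060930-83061921. RefSeq promoters, each the 250 bases before to 50 bases after a start, were matched for 63 of the 73 members. The letters TATAAA, on either strand of this 300-base window, occurred in 51 of the 63 (81.0%) and in 13.6% of all 32851 promoters in the table. On the gene's own strand and wholly within 45 to 16 bases before the start, they occurred in 60.3% of members and in 2.14% of all promoters. The letters CTTTGA, read by LEF and TCF factors, occurred on either strand in 28.6% of members and 16% of all promoters, and a promoter can hold both motifs, although one cannot overlap the other. Neighbouring keratin-associated genes are copies of one another, so their promoters are not independent, and a match describes letters only. On the gene's own strand, the 3 most abundant members (Krt75, Krt84 and Krt36) hold no TATAAA of this exact spelling in the window. The 60 bases before the start are therefore shown for 9 members whose levels are described below, with TATAAA in capitals. All 9 lie on the minus strand, and each is written 5′ to 3′ along its gene. For Krt36 the start in the promoter table lies 3861 bases inside the gene span of the annotation, and its window was read there, so bases before the outer end of that span were not searched. For the other 62 matched members the start is the end of the gene span.
Krt71 (chr15:101743098-101743157): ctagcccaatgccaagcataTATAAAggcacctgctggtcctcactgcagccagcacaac
Krt25 (chr11:99322952-99323011): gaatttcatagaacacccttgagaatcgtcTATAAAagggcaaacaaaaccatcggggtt
Krt34 (chr11:100041555-100041614): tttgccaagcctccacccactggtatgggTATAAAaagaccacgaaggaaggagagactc
Krtap3-1 (chr11:99566631-99566690): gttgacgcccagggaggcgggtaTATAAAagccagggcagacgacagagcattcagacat
Krtap8-1 (chr16:89487953-89488012): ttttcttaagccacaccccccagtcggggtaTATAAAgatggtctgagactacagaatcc
Krtap17-1 (chr11:99993995-99994054): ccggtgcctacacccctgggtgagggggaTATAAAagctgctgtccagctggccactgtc
Krt75 (chr15:101573905-101573964): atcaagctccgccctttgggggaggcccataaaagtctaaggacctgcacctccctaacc
Krt84 (chr15:101532821-101532880): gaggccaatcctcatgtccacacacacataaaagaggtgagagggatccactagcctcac
Krt36 (chr11:100105627-100105686): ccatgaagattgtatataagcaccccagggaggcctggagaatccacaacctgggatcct

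Each library held 52163179 to 64122588 counts, which puts a floor of 3 counts at 0.0466 to 0.0565 CPM (counts scaled to a common library size by the TMM method, that is, counts per 1000000). This floor covers counting error only. In these ear skin libraries, markers of epidermal keratinocytes (Krt5, Krt14, Krt1, Krt10 and Trp63) summed to 19140 to 23220 CPM with anti-OSM and 23240 to 29310 CPM with anti-Ly6G, without overlap. Genes with a summed count of 30 or more were tested with edgeR's quasi-likelihood test over all 21631 such genes, with p-values adjusted by the Benjamini-Hochberg method and called under 0.05. Of the 73 members, 54 were tested (all 19 keratins and 35 keratin-associated genes). Just inside the limit were Krtap6-1 with 30 counts and Krtap16-3 with 33, and just outside it were Krtap4-2 and Krtap4-9 with 29 each. The 19 untested members are all keratin-associated genes. They held 251 counts in all in anti-Ly6G replicate 1 and 0 to 14 in each of the other 5 libraries, and Krtap20-2 had no count in any library. Whether the 3 libraries of a group came from different animals is not labelled, and p-values here therefore reflect library-to-library spread, which may be technical.

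The members fell into 2 unequal parts by level. Krt75, Krt84 and Krt36 were expressed in all 6 libraries, with mean levels per length of 42.1, 31.9 and 22.2 TPM (a share of transcripts corrected for gene length). They made up 90.9% to 93.7% of the members' summed CPM with anti-OSM, and 52.5%, 83.1% and 89.9% in anti-Ly6G replicates 1, 2 and 3. The other 70 members together reached 12.2, 10.8 and 8.27 CPM in the anti-OSM libraries, against 153, 28.8 and 8.74 CPM in anti-Ly6G replicates 1, 2 and 3. Anti-Ly6G replicate 1 therefore stood 14.7 times above the anti-OSM mean for these 70 genes, replicate 2 stood 2.77 times above it and replicate 3 lay at 0.840 of it.

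**Figure D1:**
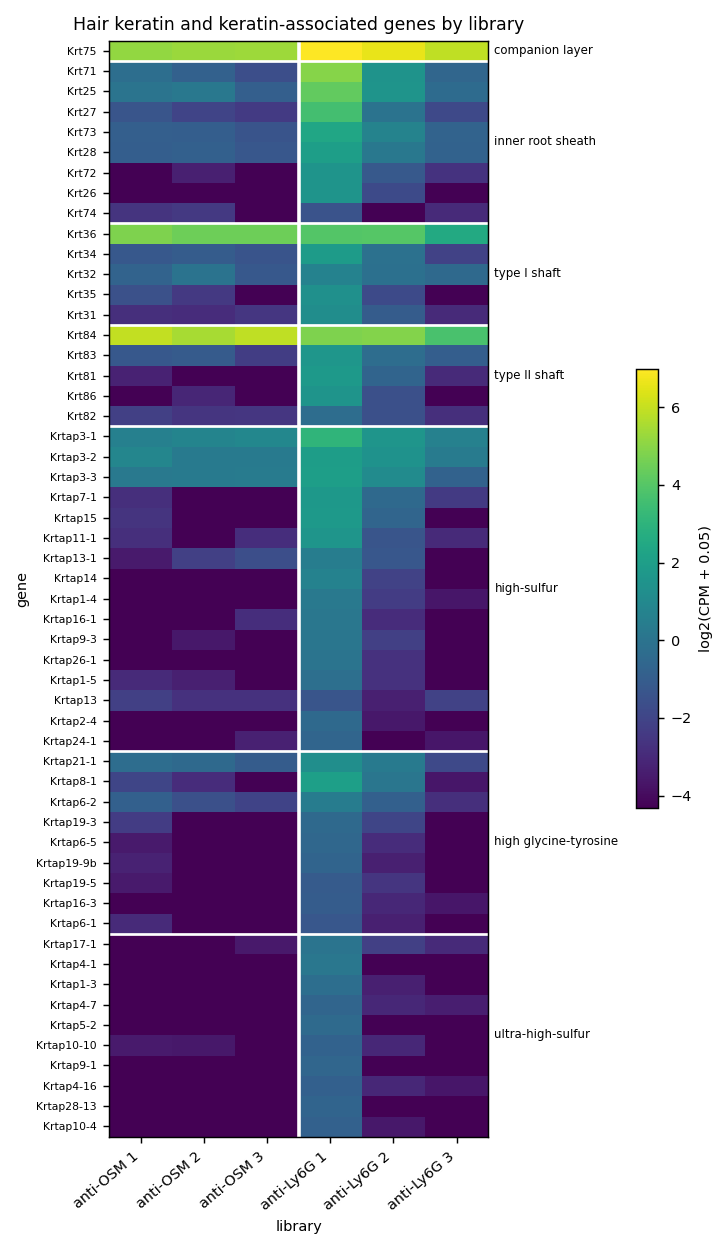
Heat map of the 54 tested members (rows, by class and then mean CPM) in the 6 libraries (columns), coloured by log2(CPM + 0.05). Krt75, Krt36 and Krt84 are bright in every library, whereas 52 of the 54 members are highest in the anti-Ly6G replicate 1 column.

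Of the 54 tested members, 1 was called higher with anti-OSM (Krt84), 1 was called lower (Krt75) and 52 did not pass. Over all tested genes 4.89% were called higher and 5.39% lower. With 1 of 54 called in each direction, the members' share is not read as different from this background. At an unadjusted p under 0.05 there were 26 of 54 members and 5909 of all 21631 genes. The fitted log2 fold change (anti-OSM over anti-Ly6G) was negative in 52 of 54 members. Its median was -3.66, or -2.52 with the 14 members at 0 in all 3 anti-OSM libraries set to the bound that a floor of 3 counts per library allows, while the median of all tested genes was 0.01. The filter shaped these values, because 27 of the 54 members (Krt26, Krt74, Krt86 and 24 keratin-associated genes) reached 30 counts only through anti-Ly6G replicate 1, so that a high value there was largely fixed by the filter. Of the other 27 members, which had 30 or more counts in the other 5 libraries, 25 had a negative fold change, with a median of -2.05.

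The 3 anti-Ly6G libraries differed widely in these genes. Of the 54 tested members, 52 had their highest level of all 6 libraries in anti-Ly6G replicate 1, against 19.1% of all tested genes. The same held for 25 of the 27 members that passed the filter without that library, and for the other 27 it largely follows from the filter. In 45 of the 54, replicate 1 exceeded replicate 2 and replicate 2 exceeded replicate 3, against 15.2% of all tested genes. The numbers are names and carry no order. For 42 members over 50% of the summed CPM of the 6 libraries came from anti-Ly6G replicate 1, whereas 0.374% of all tested genes (81 genes, these 42 included) did so. Many of these 42 reached 30 counts only through that library, and for them this share was largely fixed by the filter. The filter likewise favoured replicate 1 over replicate 2 in the count of 45. No member had over 50% of its level in any of the other 5 libraries. In 41 of the 54 members anti-Ly6G replicate 3 lay within or below the anti-OSM range, members at 0 in both included. In 39 of the 54 anti-Ly6G replicate 2 lay above all 3 anti-OSM libraries. The share of all tested genes was not computed for these counts, so they are not read as particular to the members. On the gene's own strand, TATAAA was present in the promoter window of 30 of the 34 matched members with over 50% in replicate 1. The same held for 6 of the 11 other matched tested members. Which members fell in the first set was shaped by the filter as well. In bulk skin, fewer cells of a type and less RNA per cell cannot be told apart.

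Each result was therefore also computed without these libraries. The 40 members with a count in both groups had a median log2 fold change of -2.74 with all 6 libraries, -0.68 without anti-Ly6G replicate 1 and -3.33 without anti-Ly6G replicate 3. Without anti-Ly6G replicate 1 the calls were 0 higher and 1 lower among the 54 members (1.85% of all tested genes higher and 2.61% lower), and 7 of those 40 members had a positive fold change. Without anti-Ly6G replicate 3 the calls were 2 higher and 23 lower (7% of all tested genes higher and 6.23% lower). The member count of the lower calls thus depended on which anti-Ly6G library was in the fit.

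**Figure D2:**
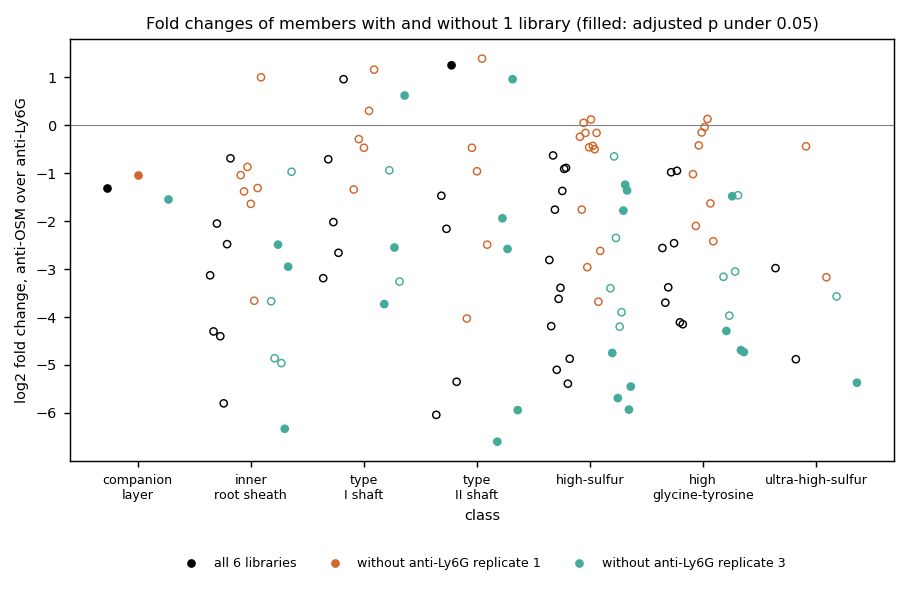
Log2 fold change (y axis, anti-OSM over anti-Ly6G) of the 40 tested members with a count in both groups, by class (x axis), with all 6 libraries (black), without anti-Ly6G replicate 1 (orange) and without anti-Ly6G replicate 3 (green). Filled points have an adjusted p under 0.05 (edgeR): 2 with all libraries, 1 without replicate 1 and 24 without replicate 3.

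Krt75, the companion layer keratin (chr15:101563343-101573904), was the only member called lower with anti-OSM. Its level was 35.9, 39.2 and 39.6 CPM in the anti-OSM libraries and 126, 96.8 and 58.7 CPM in anti-Ly6G replicates 1, 2 and 3. The groups did not overlap, and the anti-OSM libraries lay close together while the anti-Ly6G libraries spread widely. The log2 fold change was -1.30 (SE 0.25, edgeR adjusted p = 0.0253), that is 2.46-fold higher with anti-Ly6G. With 1 library left out at a time the fold change ranged from -1.54 to -1.03. The call held without anti-Ly6G replicate 1 (adjusted p = 0.0436) or replicate 3 (0.000951) and was lost in the other 4 fits, without anti-Ly6G replicate 2 or any 1 of the anti-OSM libraries (up to 0.0852).

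Among shaft keratins, Krt84 (type II, chr15:101525026-101532820) rose with anti-OSM and ran against most other members. It stood at 60.6, 45.8 and 60.4 CPM in the anti-OSM libraries and at 27.8, 29.2 and 13.2 CPM in anti-Ly6G replicates 1, 2 and 3. Its groups did not overlap, and anti-Ly6G replicate 3 was the lowest. The log2 fold change was 1.25 (SE 0.29, edgeR adjusted p = 0.0427). Left-out fits gave 0.96 to 1.43, and the call held only without anti-Ly6G replicate 3 (adjusted p = 0.00457), the others reaching 0.126.

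Krt36, a type I keratin (chr11:100102012-100109487), shared the pattern of Krt84. Both are known in mice from the filiform papillae of the tongue as well as from hair. Krt36 stood at 27.7, 22.2 and 22.3 CPM with anti-OSM and at 15.6, 15.8 and 5.70 CPM with anti-Ly6G, again with no overlap and with anti-Ly6G replicate 3 lowest. Its log2 fold change of 0.96 (SE 0.36) did not pass (edgeR adjusted p = 0.140), but did so without anti-Ly6G replicate 3 (0.62, adjusted p = 0.0166). It passed in no other edgeR fit with 1 library left out (adjusted p up to 0.28). Per length, Krt84 was 1.18 to 1.79 times Krt36 in TPM in every library. Krt75 was 0.465 to 0.672 times Krt84 in TPM in the anti-OSM libraries and 2.60 to 3.57 times Krt84 in the anti-Ly6G libraries, with no overlap. The Krt75 to Krt84 ratio was chosen after the values were seen and was not tested.

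**Figure D3:**
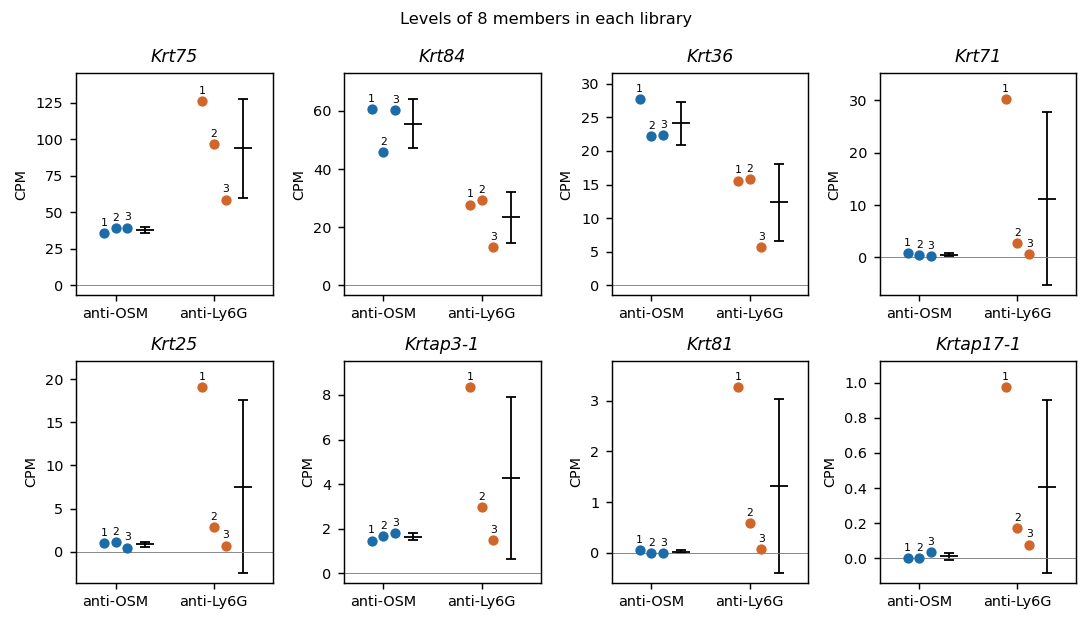
CPM of 8 members in each library (points, numbered by replicate; anti-OSM blue, anti-Ly6G orange), with the group mean and SD (black bar, n = 3) beside them, each panel on its own linear axis. Krt84 and Krt36 are higher with anti-OSM, Krt75 is higher with anti-Ly6G, and the other 5 are set apart by anti-Ly6G replicate 1.

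The other type I and type II shaft keratins, which form the filaments of cortex and cuticle, behaved unlike Krt84 and Krt36. Krt34 stood at 0.377, 0.440 and 0.333 CPM with anti-OSM and at 3.61, 0.883 and 0.186 CPM in anti-Ly6G replicates 1, 2 and 3. The groups overlapped, since anti-Ly6G replicate 3 was the lowest library of all, and the log2 fold change of -2.02 (SE 0.94) did not pass (edgeR adjusted p = 0.221). Krt32, a cuticle keratin, ranged from 0.385 to 0.930 CPM with anti-OSM and from 0.667 to 1.54 CPM with anti-Ly6G (log2 fold change -0.71, SE 0.41). Krt31 and Krt35, keratins of cortex and matrix, reached 2.28 and 2.52 CPM in anti-Ly6G replicate 1 and at most 0.442 CPM in any other library. Of the 5 type I genes all but Krt36 had a negative fold change. None passed in edgeR (2 at an unadjusted p under 0.05) or limma-voom, whereas DESeq2 called 2 of them, Krt31 and Krt34, lower. Over all genes, limma-voom called 9.55% in either direction and DESeq2 called 9.66% lower.

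Krt81, a type II cortex keratin, had 82.1% of its summed CPM over the 6 libraries in anti-Ly6G replicate 1. It stood at 0.0565, 0 and 0 CPM with anti-OSM and at 3.27, 0.578 and 0.0776 CPM in anti-Ly6G replicates 1, 2 and 3 (3, 0 and 0 counts against 201, 34 and 5). The groups did not overlap, but this rests on 5 counts in anti-Ly6G replicate 3 against 3 in anti-OSM replicate 1, near the floor. The log2 fold change of -6.04 (SE 1.76) did not pass (edgeR adjusted p = 0.0791), though it did without anti-Ly6G replicate 3 (adjusted p = 0.0150). It passed in no other edgeR fit with 1 library left out (adjusted p up to 0.237). Krt83 stood at 0.377, 0.423 and 0.158 CPM against 3.04, 0.782 and 0.466 CPM, also with no overlap (-2.16, SE 0.77, adjusted p = 0.124). Krt86 and Krt82 had fold changes of -5.35 and -1.47 and did not pass. Krt81, Krt83 and Krt86 are neighbouring genes of one family, as are Krt31 and Krt34, and their sequences were not compared here. The sources used here do not say how any shared reads were divided among such genes, so their separate values are uncertain.

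The 8 inner root sheath keratins (Krt25 to Krt28, type I, and Krt71 to Krt74, type II) gave the sharpest contrast between libraries among the keratin classes. Their summed level was 3.18, 3.01 and 1.61 CPM with anti-OSM and 76.5, 9.86 and 2.84 CPM in anti-Ly6G replicates 1, 2 and 3. Anti-Ly6G replicate 1 thus stood 29.4 times above the anti-OSM mean, and replicate 3 was within the anti-OSM range. All 8, of which Krt26 and Krt74 were tested only through anti-Ly6G replicate 1, had a negative fold change (median -3.71, or -3.69 with Krt26, at 0 with anti-OSM, at its bound), 6 had an unadjusted p under 0.05, and none passed the adjusted threshold in edgeR or limma-voom. DESeq2 called 5 of the 8 lower (Krt27, Krt28, Krt71, Krt72 and Krt73) and gave Krt74 no adjusted p.

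Krt71, a main type II partner of the inner root sheath, stood at 0.791, 0.524 and 0.280 CPM with anti-OSM and at 30.2, 2.72 and 0.605 CPM in anti-Ly6G replicates 1, 2 and 3. The groups overlapped at anti-Ly6G replicate 3, and the log2 fold change of -4.40 (SE 1.61) did not pass (edgeR adjusted p = 0.154). Its type I partners followed the same libraries. Krt25 stood at 0.980, 1.12 and 0.490 CPM against 19.1, 2.85 and 0.714 CPM (-3.13, SE 1.24), and Krt27 at 0.339, 0.203 and 0.140 CPM against 12.2, 0.952 and 0.233 CPM (-4.30, SE 1.62). Neither passed (adjusted p = 0.174 and 0.158).

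Krt72, Krt73 and Krt28 were the inner root sheath genes whose groups did not overlap. Krt73 stood at 0.490, 0.474 and 0.333 CPM against 5.09, 1.60 and 0.559 CPM in anti-Ly6G replicates 1, 2 and 3 (-2.48, SE 0.78, edgeR adjusted p = 0.0949). Krt72 had 3 counts in all with anti-OSM, and its fold change of -5.80 (SE 1.69) did not pass (adjusted p = 0.0788). All 3 passed once anti-Ly6G replicate 3 was left out (adjusted p = 0.00965 to 0.0205). None of the 3 passed in any other edgeR fit with 1 library left out (adjusted p up to 0.242 for Krt73, 0.216 for Krt72 and 0.287 for Krt28). Krt26 was at 0 in the 3 anti-OSM libraries and at 2.80, 0.238 and 0 CPM with anti-Ly6G, at least 19.0-fold lower with anti-OSM against the floor, with groups that overlapped at 0. That bound rests on anti-Ly6G replicate 1 and is 2.23-fold without it. Krt74, a transcribed pseudogene in the annotation, reached 0.325 CPM in anti-Ly6G replicate 1 and at most 0.135 CPM elsewhere.

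**Figure D4:**
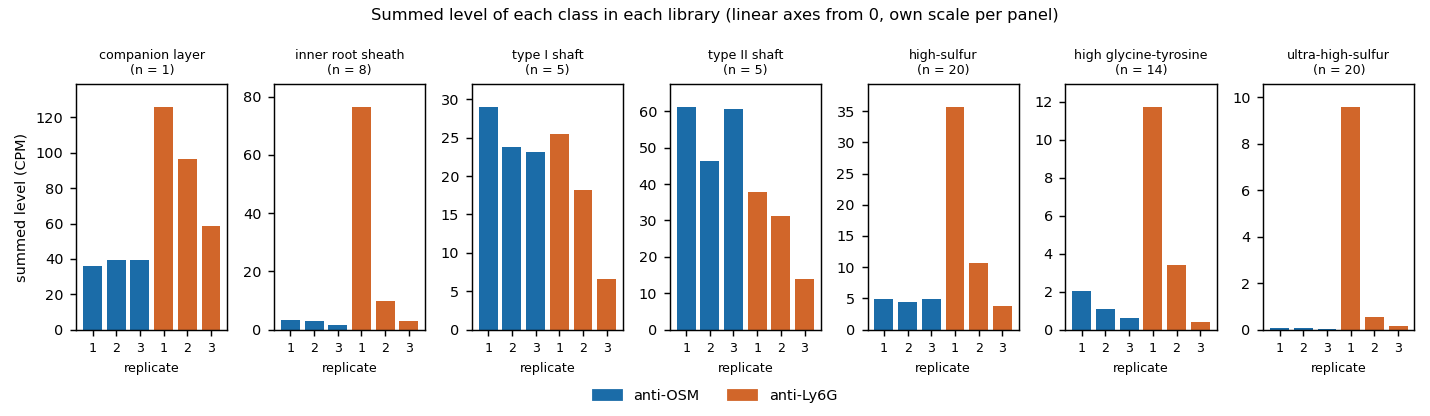
Summed CPM of each class of members (panels, with the number of genes in the table; linear y axes from 0, each on its own scale) in the 3 anti-OSM (blue) and 3 anti-Ly6G (orange) libraries. Anti-Ly6G replicate 1 is far above the rest for inner root sheath keratins (76.5 CPM) and the 3 keratin-associated classes, but not for the shaft keratin classes, which Krt36 and Krt84 dominate.

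The keratin-associated genes were split by the cysteine, and the glycine plus tyrosine, codons of their coding sequences. Genes with at least 30% cysteine codons are the ultra-high-sulfur class (20 genes, 10 tested), proteins of cuticle and cortex. Those with at least 35% glycine plus tyrosine and less cysteine are the high glycine-tyrosine class (14 genes, 9 tested), and all others are here called the high-sulfur class (20 genes, 16 tested). It is a residual class of 4.0% to 29.8% cysteine codons, and some of its members, such as Krtap15, are not rich in cysteine. Krtap7-1 falls in it with 9.2% cysteine codons, because its 29.9% of glycine plus tyrosine codons is under the 35% limit. None of the 35 tested keratin-associated genes passed in edgeR or limma-voom, against 10.3% of all tested genes in edgeR in either direction. Of the 35, 24 reached 30 counts only through anti-Ly6G replicate 1, and the other 11 all had a negative fold change and their highest level in that library. At an unadjusted p under 0.05 there were 13 of them, and without anti-Ly6G replicate 3 there were 13 called lower. DESeq2 gave an adjusted p for only some of the 35 and called 1 lower (Krtap7-1).

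The high-sulfur class was detected in every library. It summed to 4.97, 4.40 and 4.87 CPM with anti-OSM and to 35.7, 10.6 and 3.79 CPM in anti-Ly6G replicates 1, 2 and 3, so that replicate 3 was lower than any anti-OSM library. Most of the anti-OSM signal came from Krtap3-1, Krtap3-2 and Krtap3-3, a trio of neighbouring chromosome 11 genes for short shaft matrix proteins. Krtap3-1 stood at 1.47, 1.68 and 1.80 CPM against 8.36, 2.96 and 1.49 CPM (-1.37, SE 0.59, edgeR adjusted p = 0.188), Krtap3-2 at 1.77, 1.20 and 1.19 CPM against 3.89, 2.65 and 1.26 CPM (-0.91, SE 0.39), and Krtap3-3 at 1.15, 1.17 and 1.26 CPM against 4.00, 2.12 and 0.543 CPM (-0.89, SE 0.61). The groups overlapped for all 3. Krtap7-1, of the chromosome 16 cluster, stood at 0.0942, 0 and 0 CPM against 3.19, 0.680 and 0.140 CPM with no overlap (-5.39, SE 1.54, adjusted p = 0.0747).

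The ultra-high-sulfur class was close to undetected outside anti-Ly6G replicate 1. Its 20 genes together had 4, 4 and 2 counts in the anti-OSM libraries and 590, 33 and 10 counts in anti-Ly6G replicates 1, 2 and 3. All 20 had a count in anti-Ly6G replicate 1, against at most 9 in any other library. Krtap17-1 stood at 0, 0 and 0.0350 CPM with anti-OSM and at 0.976, 0.170 and 0.0776 CPM with anti-Ly6G, without overlap (-4.88, SE 1.38, edgeR adjusted p = 0.0634). Krtap1-3 and Krtap4-1 were at 0 in all anti-OSM libraries and reached 0.797 and 1.07 CPM in anti-Ly6G replicate 1, which puts them at least 5.31-fold and 6.72-fold lower with anti-OSM against the floor of 3 counts per library. Both bounds rest on that 1 library, without which the 2 genes were at or under the floor in both groups, and their groups overlapped at 0. For Krtap4-1, Krtap5-2, Krtap9-1 and Krtap28-13, anti-Ly6G replicate 1 held every count of the 6 libraries. At these depths levels under the floor were not detectable, and these families are close copies.

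The high glycine-tyrosine class, typical of the orthocortex of the shaft, summed to 2.03, 1.08 and 0.631 CPM with anti-OSM and to 11.7, 3.42 and 0.388 CPM in anti-Ly6G replicates 1, 2 and 3. Krtap8-1 stood at 0.207, 0.0846 and 0 CPM against 4.13, 1.02 and 0.0311 CPM (-4.15, SE 1.57, edgeR adjusted p = 0.151). Krtap21-1 stood at 0.772, 0.677 and 0.438 CPM against 2.33, 1.17 and 0.233 CPM (-0.98, SE 0.70), and Krtap6-2 at 0.509, 0.287 and 0.193 CPM against 1.30, 0.510 and 0.0931 CPM (-0.95, SE 0.80). In each of the 3 the lowest or next to lowest library was anti-Ly6G replicate 3, and the groups overlapped. Without anti-Ly6G replicate 1 the fold change of Krtap6-2 turned to 0.13.

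Counting genes without overlap between groups, 12 of 54 members were lower in all anti-OSM libraries (16.6% of all tested genes were) and 2, Krt84 and Krt36, were higher in all of them (16.8%). The 12 comprised Krt75, Krt28, Krt72, Krt73, Krt81, Krt83 and 6 keratin-associated genes. Of these 6, all but Krtap7-1 were tested only through anti-Ly6G replicate 1, so the count of 12 was partly shaped by the filter. In anti-Ly6G replicate 3, Krtap1-4, Krtap4-16 and Krtap16-3 had 2 counts each and Krtap4-7 had 3, against 0 in every anti-OSM library. The separation of these genes thus rests on counts at or under the floor of 3. The step between anti-Ly6G replicates 1 and 2 was not the same for all members. Among the 32 with at least 10 counts in replicate 2, the CPM ratio of replicate 1 to replicate 2 had a median of 4.07 and ran from 0.949 for Krt84 to 12.9 for Krt27. By class its median was 7.16 for inner root sheath keratins (n = 7), 4.69 for high-sulfur genes (n = 9) and 2.95 for high glycine-tyrosine genes (n = 4), and it was 1.30 for Krt75.

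Other genes of the hair follicle were read from lists chosen with earlier results of these data known. Among 10 structural genes of shaft and sheath, 4 were lower with anti-OSM and none higher. Tchh, which encodes trichohyalin of the inner root sheath and medulla, stood at 87.5, 111 and 85.8 CPM against 632, 374 and 350 CPM (-2.26, SE 0.24, edgeR adjusted p = 0.00530), and passed in all 6 fits with 1 library left out. Padi3, which deiminates trichohyalin, fell by 1.69 on the log2 scale (SE 0.37, adjusted p = 0.0300), and Tchhl1 and Tgm3 also passed. With 1 library left out, however, Padi3 and Tgm3 passed in 1 of 6 fits each (up to 0.103 and 0.109) and Tchhl1 in 3 (up to 0.116). The 10 genes summed to 809, 539 and 500 CPM in anti-Ly6G replicates 1, 2 and 3 and to 201 to 242 CPM in the anti-OSM libraries, sums made up mostly of Tchh and Tgm3. Of the 10, 7 were highest in anti-Ly6G replicate 1. S100a3, a calcium-binding protein of the hair cuticle, was among these, with 9.73, 3.64 and 2.48 CPM in anti-Ly6G replicates 1, 2 and 3. Of 4 hair keratins outside the symbol pattern (Krt33a, Krt33b, Krt39 and Krt40) none passed (2 at an unadjusted p under 0.05). DESeq2 called Krt33a, the only one of the 4 to which it gave an adjusted p. Their sum was 6.75 CPM in anti-Ly6G replicate 1 and at most 0.867 CPM elsewhere. Krt85, another type II hair keratin, would fit the symbol pattern but is not a symbol in the mouse gene table, so it was not analysed.

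Of 19 tested transcription factors of hair matrix and shaft, 1 was higher and 1 lower. Hoxc13, which drives shaft keratin genes, stood at 9.40, 8.57 and 8.07 CPM with anti-OSM against 26.0, 20.1 and 16.3 CPM in anti-Ly6G replicates 1, 2 and 3 (-1.26, SE 0.17, edgeR adjusted p = 0.00645), and passed in all 6 fits with 1 library left out. Foxq1, a factor of the medulla, rose by 0.63 (SE 0.12, adjusted p = 0.0183), and passed in 3 of those fits (up to 0.0715). Lef1 (-0.01, SE 0.15), Foxn1 (0.10, SE 0.19) and Msx2 (-0.25, SE 0.22) did not pass.

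Genes that mark follicle phases were read next. Of 19 tested growth signals of anagen, 2 were higher (Igf1, Fgf7) and 4 lower (Corin, Bmp2, Bambi, Wnt10a). With 1 library left out Igf1 and Corin passed in all 6 fits, and the other 4 in 1 or 2 (up to an adjusted p of 0.108 for Wnt10a, edgeR). Of these 19 genes, 2 were highest in anti-Ly6G replicate 1. The list summed to 433 to 455 CPM with anti-OSM and to 394, 424 and 387 CPM in anti-Ly6G replicates 1, 2 and 3. Bmp2, a signal also made in the hair matrix, stood at 59.6, 58.3 and 33.5 CPM in them. Shh, which the anagen matrix secretes, was at 0 CPM in all anti-OSM libraries and in anti-Ly6G replicate 1, and at most 0.0931 CPM elsewhere, below the limit for testing. Of 18 genes of the resting follicle, bulge and regression, 1 was higher (Cd34) and 4 lower (Sox9, Wif1, Foxc1, Dkk3). None of the 18 was highest in anti-Ly6G replicate 1. Their sums were 1247 to 1441 CPM with anti-OSM and 1493, 1660 and 1496 CPM in anti-Ly6G replicates 1, 2 and 3. Sox9 passed in all 6 left-out fits, Cd34 in 5, Wif1 in 4, and Foxc1 and Dkk3 in 1 each (up to 0.0917 and 0.100). None of 14 melanocyte pigment genes passed (2 at an unadjusted p under 0.05, and 0 in DESeq2). They summed to 116.1 to 156.5 CPM with anti-OSM and to 137, 127 and 118 CPM in anti-Ly6G replicates 1, 2 and 3. The part of hair cycle phase in the differences between libraries was not tested.

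Of 15 keratins of outer root sheath and epidermis, 5 were lower with anti-OSM and none higher. Krt6a, a stress keratin also made in the companion layer, stood at 515, 767 and 967 CPM against 2653, 1930 and 3132 CPM (-1.78, SE 0.26, edgeR adjusted p = 0.0118), with anti-Ly6G replicate 3 the highest. Krt17, Krt6b, Krt79 and Krt14 also passed. With 1 library left out Krt6a and Krt17 passed in all 6 fits, Krt6b in 3, Krt14 in 2 and Krt79 in 1 (up to 0.0875 for Krt14), whereas with all libraries Krt5 (-0.22, SE 0.11), Krt1 (-0.68, SE 0.19) and Krt10 (0.05, SE 0.19) did not.

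Markers of other cells in the ear moved between the groups. Skeletal muscle markers (6 of 6 with a negative fold change, 5 passed) summed to 1774 to 2192 CPM with anti-OSM and 2855 to 3129 CPM with anti-Ly6G, and cartilage markers (4 of 6 passed as lower) to 143 to 150 and 268 to 312 CPM. Sebaceous gland markers (0 of 6 passed in edgeR, 4 at an unadjusted p under 0.05 and 4 in DESeq2) summed to 2231 to 4031 and 4375 to 5093 CPM, dermal papilla markers (2 of 5 lower) to 231 to 257 and 310 to 347 CPM, and dermal fibroblast markers (3 of 5 higher) to 5850 to 6387 and 3807 to 4976 CPM. Melanocyte (41.5 to 71.8 and 45.3 to 66.3 CPM) and red blood cell markers (38.4 to 235 and 42.2 to 92.3 CPM) overlapped between groups. No marker of these lists was at 0 in all 6 libraries. Of these sums, the melanocyte sum was the only one for which anti-Ly6G replicate 1 was the highest of the anti-Ly6G libraries. Their part in the group differences of Krt75 and Krt84 was not tested.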

How the data were processed

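Ear skin polyA RNA was measured in 16 labelled samples (5 control, 5 MC903, 3 anti-OSM, 3 anti-Ly6G), of which 6, those with an antibody, were analysed here. The read counts are whole numbers per gene as deposited by the authors; the sources used here do not give how reads were assigned to genes, how shared reads were divided or whether strand was used. The TPM and FPKM values were computed by the authors, per the file headers; TPM was used to compare genes per length, and FPKM to check columns only. The submitters' processing notes name HISAT2 2.1.0, StringTie 2.1.3b and the mm10 build, with no roles.

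The members, the lists of genes and the naming rule were chosen with earlier results of these data known. Genes with a summed count of 30 or more were fitted with edgeR 4.0.16 in R 4.3.3 (TMM scaling, robust quasi-likelihood, no covariate, Benjamini-Hochberg adjustment over 21631 genes, threshold 0.05). Total counts were 52163179 to 64122588 per library. No pair of libraries within a group was a duplicate (chi-square per gene at least 26.2). Named members are those that passed, the 3 of highest mean CPM in each of 7 classes, and the 3 of smallest p in each direction; of each other list, up to 4 of smallest p and Krt5, Krt14, Krt1 and Krt10. Krt26, Krt28, Krt31, Krt35, Krt72, Krt73, Krt74, Krt82, Krt86, Krtap5-2, Krtap9-1, Krtap28-13, Lef1, Foxn1, Msx2, Shh and any other gene outside this rule were named after their values were seen.

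Classes of keratin-associated genes were to be read from RefSeq proteins; here they came from codons of GENCODE M21 coding sequences, found for 72 of the 73 members. Promoters and positions are from RefSeq GRCm38.p6. Alternatives were DESeq2 1.42.0 and its size factors in edgeR, limma-voom (limma 3.58.1), total-count scaling, other filters, a non-robust fit, leaving out each library and a replicate block. The test was checked on simulated data.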

Additional observations from a re-analysis of the deposited data

How the results depend on the processing

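Of the 54 members, 1 was called higher and 1 lower, and these counts were the same with DESeq2's size factors in edgeR, total-count scaling, filterByExpr, a summed count of 100 or more, a non-robust fit and limma-voom. With no filter beyond 1 count they were 0 and 0. Of the 54, filterByExpr kept 21 and the limit of 100 counts kept 28. DESeq2, which gave an adjusted p for 26 of the members and for 17853 genes, called 1 member higher and 11 lower. It called 1629 genes higher in all, against 1057 of 21631 in edgeR. Leaving out 1 library at a time gave 0 to 2 members called higher and 0 to 23 lower, and 160 to 1514 and 367 to 1348 of all tested genes. The highest counts came without anti-Ly6G replicate 3; without each of the other 5 libraries at most 1 member passed. The 20 named members were refitted under 15 alternatives: of 288 values, 251 kept direction and side of the threshold, 24 newly passed, 12 no longer did, and 1 reversed, Krtap6-2, whose fold change ran from -1.46 to 0.13 with 1 library left out and was 0.13 without anti-Ly6G replicate 1. Where no count was left, or DESeq2 gave no adjusted p, there was no value. The causes were not tested.

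Deviations from the group means had correlations of -0.05, 0.07 and 0.23 between same-numbered libraries (15744 genes). Between the other pairs they ran from -0.22 to 0.14, so the highest was for the replicates numbered 3. Deviations from a mean of 3 libraries are not independent, and this check cannot exclude pairing. The numbers were not taken as pairs, because no label gives them as such. With the replicate block, 0 members were called higher and 16 lower, against 1213 and 1177 of all 21631 tested genes. Krt84 then had an adjusted p of 0.0600 (edgeR). Not every library correlated best with its own number. With 3 libraries a group, and members mostly under 1 CPM outside anti-Ly6G replicate 1, depth limits what could be detected.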

Other observations

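Of the 81 tested genes with over 50% of their summed CPM in that library, 39 were no members, and 15 of these lie within the genomic spans of the members' clusters. The other libraries each held 5 to 11 such genes. All genes named here were chosen after their values were seen, and none was tested for this pattern. The type I hair keratins Krt33a and Krt33b had 240 and 112 counts in anti-Ly6G replicate 1, and the type II hair keratin Krt87 had 186. In the other 5 libraries Krt33a had 0 to 33 counts, Krt33b 0 to 9 and Krt87 4 to 17. Gprc5d, a receptor of shaft-forming cells, had 84 counts in anti-Ly6G replicate 1 and 0 to 8 elsewhere. Dsg4, the desmosomal cadherin of the hair shaft, had 52 counts there and 0 to 8 elsewhere, and Vsig8, a hair shaft and sheath protein, had 122 and 0 to 21. The gene models Gm11559 and Gm11568, both within the chromosome 11 span, had 69 and 58 counts in anti-Ly6G replicate 1 and none in any other library. Genes in none of the hair lists used here were among the 39 too, and any tie of theirs to hair was not looked up. Calhm4 had 101 counts in anti-Ly6G replicate 1 and 0 to 21 elsewhere, Lyg2 had 83 and 0 to 9, and Cstdc3 had 47 and 0 to 8. Ppifos and LOC115489920 had 67 and 47 counts in anti-Ly6G replicate 1 and none in any other library. Of the 39, 36 reached 30 counts only through that library.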
